A study of Mus musculus with 17 samples.

Results

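The NOX2 inhibitor was compared with its control peptide in cortical microvessels of APP/PS1 mice, an amyloid model of Alzheimer's disease. The comparison took all APP/PS1 libraries, which are 7 of the 17 libraries of the study: 5 from mice given the inhibitor and 2 from mice given the control peptide. The members are the 18753 genes with enough counts to be tested. The inhibitor was gp91-ds-tat and the control was sgp91-ds-tat, each given intraperitoneally at 10 mg/kg at intervals of 2 days over 2 weeks. The mice were 10 to 11 months old. In the sample labels these mice are APP and the peptides NOX2, read here as the inhibitor, and SC, read as its control. The other 10 libraries, 5 with each peptide, came from wild-type (WT) mice on the same schedule, so every animal of the study received a peptide and no library shows the untreated state. The labels give no sex, strain or transgene promoter, and do not say whether a library came from 1 animal or from a pool. They place the RNA isolation after a surgery, which they do not describe. The 2 control libraries are called control 1 and control 2 and the others inhibitor 1 to 5; these numbers follow the sample order and pair no libraries.

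NOX2 is a membrane enzyme of phagocytes, microglia, perivascular macrophages and some vascular cells that passes electrons from NADPH to oxygen and so makes superoxide. Its catalytic subunit gp91phox, encoded by Cybb, and its partner p22phox, encoded by Cyba, sit in the membrane and are inactive until cytosolic subunits, p47phox and p40phox among them, and a Rac GTPase join them. The inhibitor peptide carries a stretch of gp91phox that binds p47phox and blocks this assembly, so it acts on the protein. The series title concerns vascular oxidative stress and neutrophils held in brain capillaries. The comparison asks which transcripts of the microvessels differ with the inhibitor in APP/PS1 mice.

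The APP/PS1 libraries held 9535602 to 16292707 counts. A level of 3 counts, taken as the floor of detection for each library, corresponded to 0.182 to 0.326 CPM (counts scaled to library size, the sizes themselves adjusted by the TMM method). The ribosomal RNA-linked genes Gm26917 and Gm42418 together took 4.76% to 15.99% of the counts with inhibitor, and 7.34% and 15.4% in controls 1 and 2. No library repeated another: over the 21 pairs of APP/PS1 libraries the smallest chi-square per degree of freedom was 7.74. Since the labels do not name separate animals, the p-values measure a spread between libraries. That spread was estimated over all 17 libraries of the study, those from WT mice included. App and Prnp were examined as a check of the genotype label. App was at 1897, 2500, 2521, 2062 and 3334 CPM with inhibitor and at 3113 and 2761 CPM in the controls, and the groups overlapped. In WT its highest library was at 2230 CPM. Prnp, the gene of the prion protein, was at 682 CPM or more in every APP/PS1 library and at 555 CPM or less in every WT library.

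The 7 libraries carried the markers that the labelled cell types call for. The endothelial tight junction gene Cldn5 was at 165, 393, 185, 201 and 285 CPM with inhibitor and at 155 and 333 CPM in controls 1 and 2. The pericyte gene Pdgfrb ranged from 121 to 208 CPM over the 7 libraries and the water channel gene of astrocytic endfeet, Aqp4, from 85.4 to 197 CPM. Transcripts of neurons and oligodendrocytes were also present, with Snap25 at 385 to 610 CPM and Mbp at 391 to 624 CPM. The summed level of 11 neuron markers was 3745, 3509, 4280, 3342 and 4735 CPM in inhibitor 1 to 5, and 4808 and 3922 CPM in controls 1 and 2. That of 13 endothelial markers was 2786, 4568, 2762, 2520 and 4259 CPM with inhibitor, and 3387 and 4078 CPM in the controls. In bulk RNA fewer cells of a type and less RNA per cell cannot be told apart.

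Some libraries stood apart in ways that the labels do not describe. Xist, the RNA of the inactive X chromosome, was at 8447, 6650, 668, 6840 and 7888 CPM in inhibitor 1 to 5 and at 13.5 and 7982 CPM in controls 1 and 2. The summed level of the Y-linked genes Ddx3y, Eif2s3y, Kdm5d and Uty was 0.253, 15.3, 319, 0.454 and 5.57 CPM with inhibitor, and 317 and 12.9 CPM in the controls. Control 1 thus had high Y-linked and low Xist levels and control 2 the reverse, while inhibitor 3 had high Y-linked levels with Xist between the 2 extremes. The choroid plexus, the epithelium that makes cerebrospinal fluid, also differed between libraries: its carrier gene Ttr was at 2727, 1960, 401, 4323 and 528 CPM with inhibitor and at 1710 and 163 CPM in the controls. The mean level of the 10 choroid plexus markers was lowest in control 2, at 3.17 log2 CPM, and was 5.83 log2 CPM in control 1, within the 3.94 to 6.97 log2 CPM of the inhibitor libraries. The 10 symbol-named genes of at least 5 CPM that differed most between the controls were Xist, the 4 Y-linked genes and Cldn2, Kcne2, Tmem72, Sostdc1 and Mfrp, of which Sostdc1 is on the choroid plexus list. Kcne2, a potassium channel subunit of choroid plexus epithelium, was at 11.0 CPM in control 1 and 0.333 CPM in control 2. The genes that varied most over the inhibitor libraries were the same 4 Y-linked genes and Drc7, a gene of motile cilia, at 1.63 to 25.2 CPM.

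**Figure D1:**
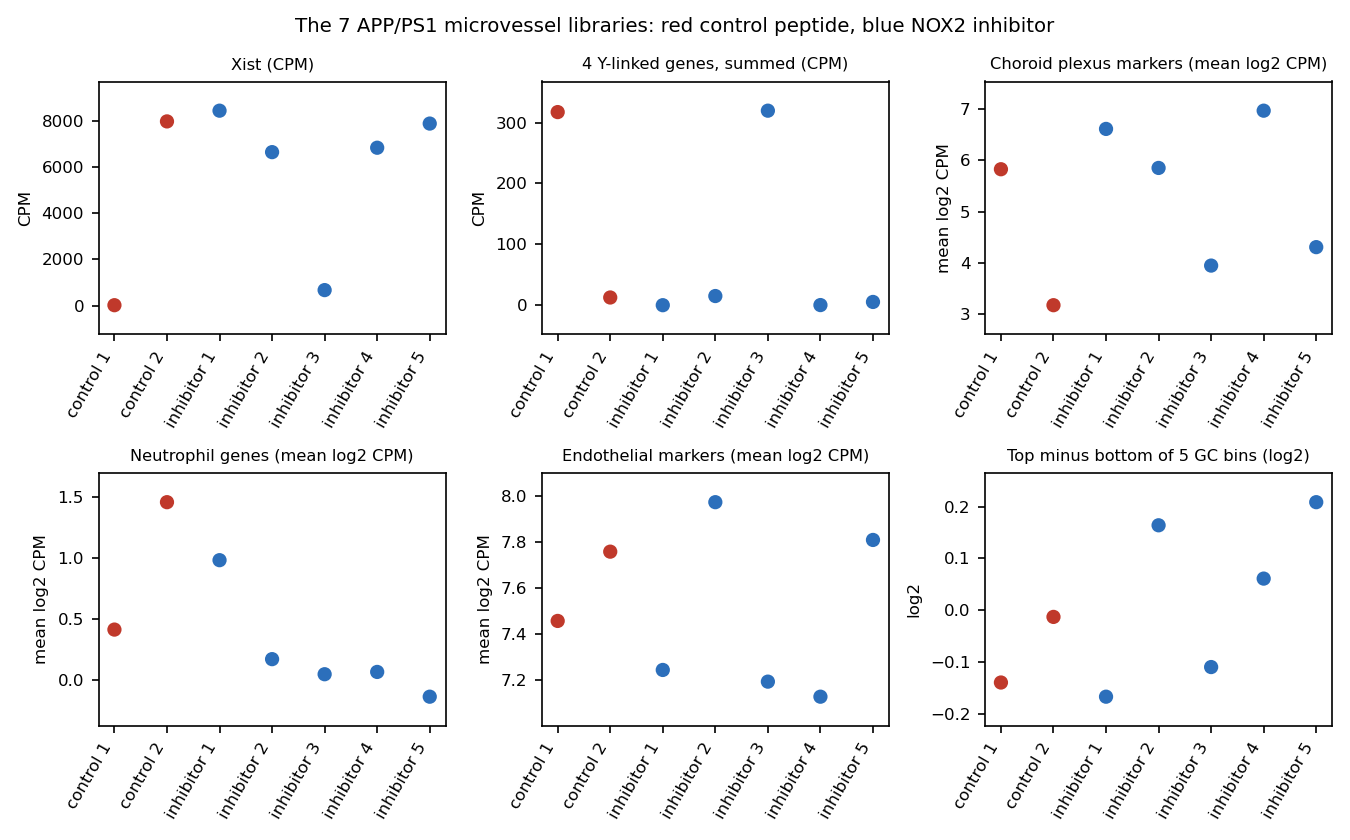
Levels in each of the 7 APP/PS1 libraries on linear or log2 CPM axes as labelled: Xist, the sum of 4 Y-linked genes, the mean log2 CPM of 3 marker lists, and the median log2 deviation of the highest of 5 bins of GC content minus that of the lowest. Each point is 1 library, with no error bar. Control 1 and inhibitor 3 are high for the Y-linked genes, at 317 and 319 CPM, and control 2 has the lowest choroid plexus level.

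The difference between the controls lay inside the range of the other pairs. Over the 13395 genes with a mean of at least 5 CPM, the median absolute log2 difference between control 1 and control 2 was 0.198. The 10 pairs of inhibitor libraries had medians from 0.176 to 0.310, with a middle value of 0.212. The 10 pairs of 1 inhibitor and 1 control library had medians from 0.139 to 0.236, with a middle value of 0.185. The closest pair of all was control 2 with inhibitor 2. Between the controls, 181 of these genes differed by more than 1 on the log2 scale.

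**Figure D2:**
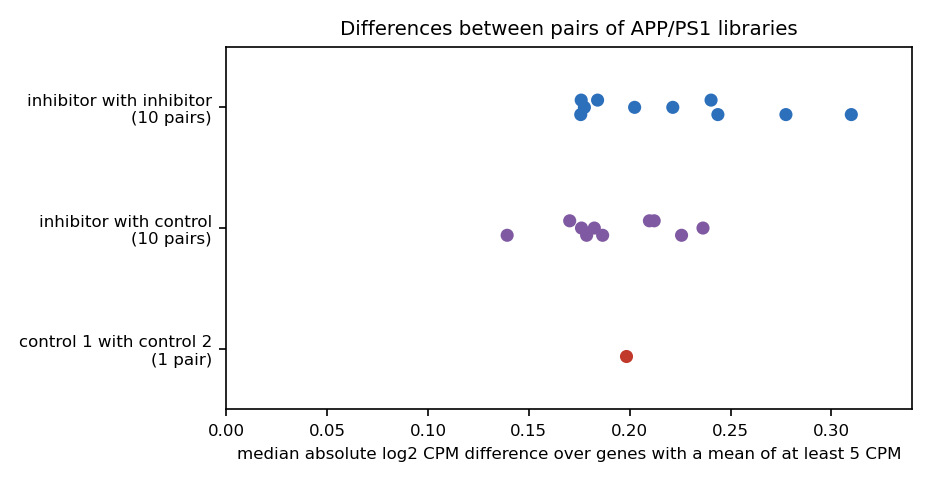
Median absolute log2 CPM difference (x axis) of each of the 21 pairs of APP/PS1 libraries, over 13395 genes; each point is 1 pair and the rows give the kind of pair. The pairs across the groups, at 0.139 to 0.236, lie no farther right than the pairs within the inhibitor group, at 0.176 to 0.310.

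No gene passed the test of the inhibitor effect in APP/PS1. Of 18753 genes, 0 (0%) passed an adjusted p of 0.05 in the quasi-likelihood test of edgeR (p-values adjusted by Benjamini-Hochberg over all genes), and the smallest adjusted p was 0.9998. DESeq2 and limma-voom also called 0 genes. At an unadjusted p under 0.05 edgeR's test gave 338 genes (1.80%), DESeq2 312 and limma-voom 453, and the edgeR share was below what evenly spread p-values would give at that threshold. Of the 338 genes, 243 (1.30%) had higher and 95 (0.507%) had lower levels with inhibitor. The precision was that of 2 control libraries: the median standard error of a log2 change was 0.20. For 15226 genes (81.2%) the 95% interval of the change lay within 1 of 0 on the log2 scale, which is less than a doubling or halving. Among the 11218 genes with a mean of at least 10 CPM this held for 10981 (97.9%). Intervals were wider for genes at lower levels, and a p that misses the threshold does not show that levels were equal. The count of 338 was 614 without control 2, 592 without inhibitor 5, 219 without inhibitor 4 and 590 with no filter on low counts.

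**Figure D3:**
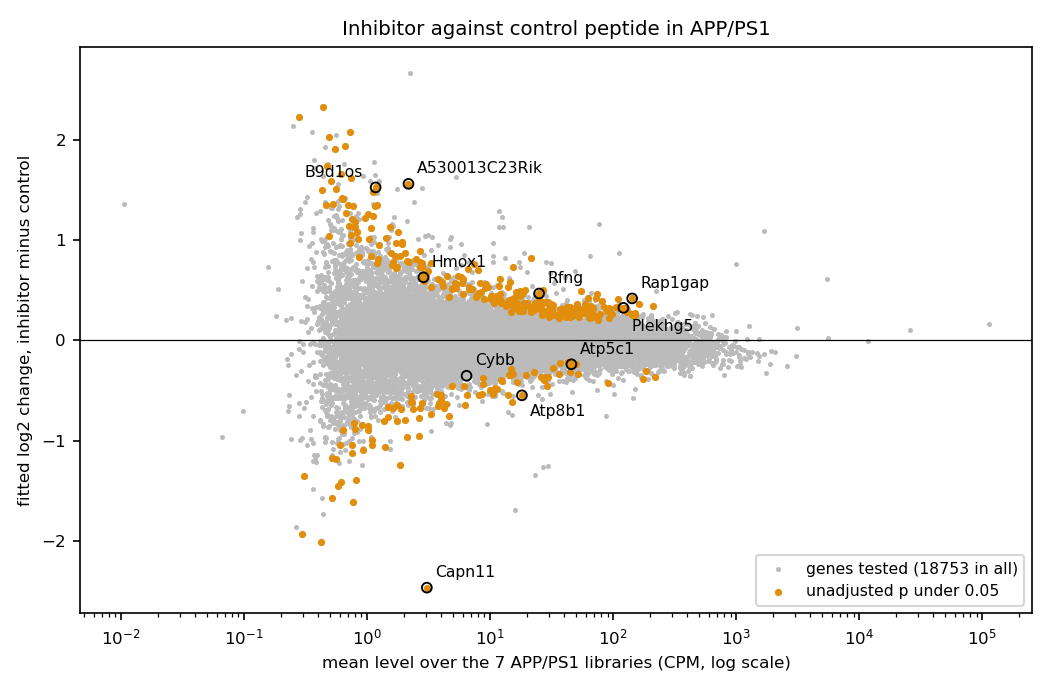
Fitted log2 change, inhibitor minus control (y axis), against the mean level over the 7 APP/PS1 libraries (x axis, CPM, log scale) for the 18753 genes tested. Grey points are genes, orange points those with an unadjusted p under 0.05 (338 genes, none past the adjusted threshold), and circles mark 10 genes named in the text.

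The genes with an unadjusted p under 0.05 differed in base composition. The 243 with higher levels had a median transcript GC content of 55.8%, the 95 with lower levels 45.5%, and all genes tested 48.8%. The libraries differed in the same property: when genes were divided by GC content into 5 equal bins, the median log2 deviation of the highest bin minus that of the lowest was −0.17, 0.16, −0.11, 0.06 and 0.21 in inhibitor 1 to 5, and −0.14 and −0.01 in controls 1 and 2. With per-library offsets for GC content, an alternative added after the data were seen, 267 genes had an unadjusted p under 0.05 and 0 passed the adjusted threshold.

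Both control libraries lay outside the range of the 5 inhibitor libraries for 868 genes (4.63%). They were below it for 540 genes (2.88%) and above it for 328 (1.75%). The share to be seen without any inhibitor effect was not worked out, so these counts do not show an effect.

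A530013C23Rik had the smallest p. It is a long noncoding RNA on chromosome 2 (167691177 to 167729172, GRCm38, GENCODE vM21). It was at 2.53, 2.07, 3.80, 3.08 and 1.97 CPM in inhibitor 1 to 5 and at 1.09 and 0.665 CPM in controls 1 and 2. All inhibitor libraries were above both controls, on counts of 24 to 40 against 18 and 8. Its log2 change was 1.56 ± 0.37 (SE; 95% interval 0.78 to 2.34; edgeR quasi-likelihood test, unadjusted p = 0.000495, Benjamini-Hochberg adjusted p = 1.00). In WT the log2 change was 0.59 ± 0.26 (SE).

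The 10 symbol-named genes of at least 1 CPM with the smallest p among those with higher levels were B9d1os, Rfng, Rap1gap, Amhr2, Mmp23, Agap3, Rrp9, BX649560.1, Lzts3 and Plekhg5. Rfng, on chromosome 11 (120780746 to 120784207, GRCm38), encodes radical fringe, a glycosyltransferase that modifies Notch receptors. It was at 28.7, 25.2, 24.0, 30.03 and 27.9 CPM with inhibitor and at 19.1 and 20.2 CPM in the controls. The groups did not overlap, and the log2 change was 0.47 ± 0.12 (SE; interval 0.21 to 0.72; unadjusted p = 0.00108 by edgeR). Rap1gap, on chromosome 4 (137664726 to 137729861, GRCm38), encodes a protein that switches off the small GTPase Rap1, a regulator of cell adhesion. It was at 158, 137, 159, 173 and 142 CPM with inhibitor and at 117 and 113 CPM in the controls, again without overlap, with a log2 change of 0.42 ± 0.12 (SE). Plekhg5, a guanine nucleotide exchange factor, had the tightest values: 126 to 130 CPM with inhibitor and 102 and 104 CPM in the controls, a log2 change of 0.33 ± 0.11 (SE). In WT the log2 changes of Rfng, Rap1gap and Plekhg5 were 0.07, 0.15 and 0.08.

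Several of the others were at low levels. B9d1os, annotated as antisense, was at 1.01, 1.25, 1.52, 1.81 and 1.64 CPM with inhibitor and at 0.485 and 0.499 CPM in the controls, a log2 change of 1.52 ± 0.38 (SE). Because the labels do not say whether counting used strand, its reads cannot be told apart from those of a gene on the other strand. Mmp23, a membrane-anchored metalloproteinase, was at 2.78 to 3.40 CPM against 1.52 and 1.83 CPM, and Amhr2, the receptor for anti-Müllerian hormone, at 0.907 to 2.13 CPM against 0.485 and 0.665 CPM. Agap3, a GTPase-activating protein for Arf, was at 94.4 to 107 CPM against 80.7 and 83.8 CPM, with a log2 change of 0.29 ± 0.09 (SE). Rrp9, a component of the ribosomal RNA-processing machinery, had a log2 change of 0.61 ± 0.19 (SE), and control 2, at 9.90 CPM, lay just under the lowest inhibitor library at 10.05 CPM.

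Those with lower levels included Atp8b1, Gpr149, Nt5e, Ly96, Pcdhb5, BC035947, Lrrn3, Map2k6 and Cftr. Atp8b1, a phospholipid flippase, was at 13.9, 17.9, 17.5, 14.3 and 16.6 CPM with inhibitor and at 21.7 and 25.2 CPM in the controls. The groups did not overlap and the log2 change was −0.55 ± 0.16 (SE; interval −0.89 to −0.21; unadjusted p = 0.00328 by edgeR). Nt5e encodes CD73, which makes adenosine from AMP outside the cell. It was at 7.60 to 10.5 CPM with inhibitor and at 12.4 and 12.97 CPM in the controls, a log2 change of −0.49 ± 0.17 (SE). Ly96 encodes MD-2, the partner of the endotoxin receptor TLR4, and was at 1.11 to 2.00 CPM against 2.85 and 2.16 CPM. The chloride channel gene Cftr was the only one of the genes named in either direction in which a control lay within the inhibitor range, with control 1 at 2.97 CPM and inhibitor 2 at 3.40 CPM. Pcdhb5 belongs to a family of near-identical protocadherin genes, so its count is uncertain.

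**Figure D4:**
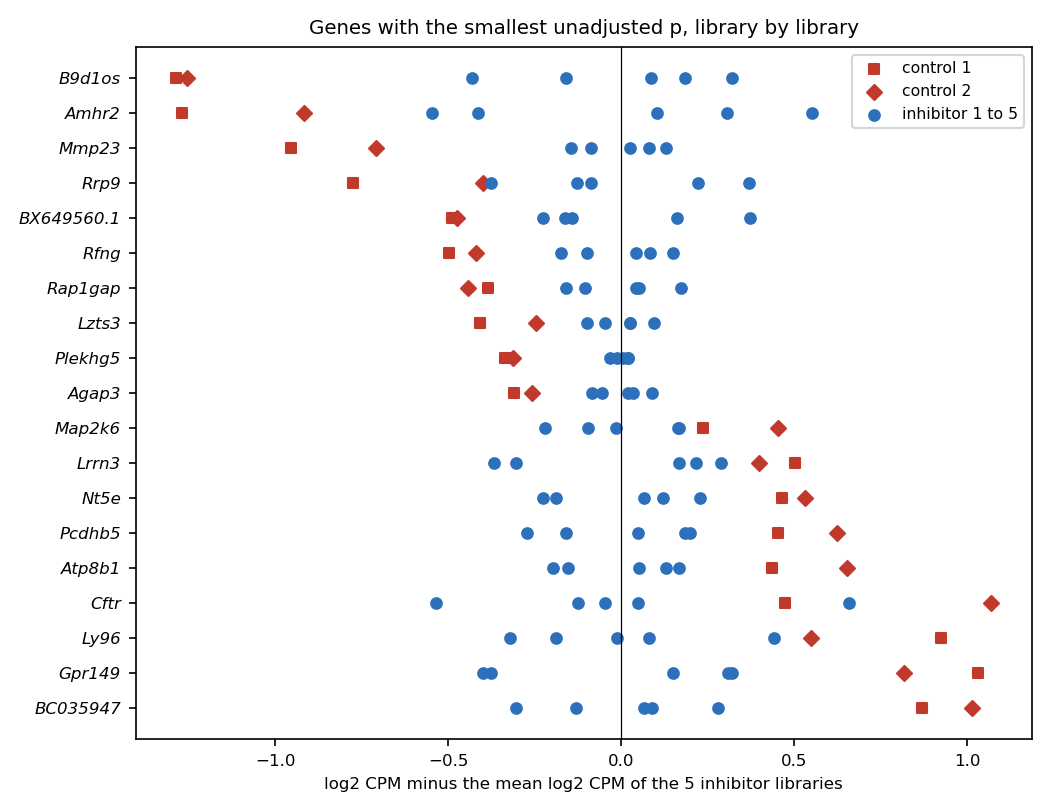
Log2 CPM in each of the 7 APP/PS1 libraries minus the mean log2 CPM of the 5 inhibitor libraries (x axis) for the genes named in the text as having the smallest unadjusted p in each direction (y axis). Red marks are the control libraries and blue points the inhibitor libraries. The controls lie outside the inhibitor points in every gene except Cftr; the genes were chosen on this contrast, so the separation follows from the choice.

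Among symbol-named genes of at least 1 CPM, the widest gap with both controls above was in Capn11, a calpain protease gene. It was at 0.505, 1.62, 3.69, 0.544 and 0.574 CPM in inhibitor 1 to 5, on 6 to 34 counts, and at 6.85 and 7.65 CPM in the controls, on 113 and 92 counts. The log2 change was −2.46 ± 0.95 (SE; interval −4.46 to −0.46; unadjusted p = 0.0186 by edgeR). In WT the same gene ran from 0 to 10.8 CPM with control peptide, so its level varied widely within that group as well. The other genes of this kind were Gpr149, BC035947, Asb11 and Mrap2, with log2 changes of −0.63 to −1.04. With both controls below, the widest gaps among symbol-named genes were in B9d1os, Mmp23, Myb, Chrnb4 and Exoc3l4, and that of A530013C23Rik, which the symbol rule leaves out, lay between those of B9d1os and Mmp23. Myb, a transcription factor of progenitor cells, was at 1.01 to 1.48 CPM against 0.546 and 0.665 CPM. Chrnb4, a nicotinic receptor subunit, was at 0.738 to 2.15 CPM against 0.485 and 0.333 CPM, and ranged from 0.0578 to 4.82 CPM in WT with control peptide.

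The subunits of NADPH oxidases were within the spread of the libraries. Cybb, on the X chromosome (9435252 to 9487771, GRCm38), was at 7.01, 7.68, 3.69, 3.99 and 7.29 CPM with inhibitor and at 6.005 and 9.40 CPM in controls 1 and 2. The inhibitor libraries averaged 5.93 CPM ± 1.93 (SD, n = 5) and the controls 7.70 CPM ± 2.40 (SD, n = 2), and the groups overlapped. The log2 change was −0.35 ± 0.34 (SE; interval −1.07 to 0.37). Against control 1 alone it was 0.00 and against control 2 alone −0.65. In WT it was 0.09 ± 0.28 (SE).

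Other membrane and cytosolic parts of NOX2 overlapped in the same way. Cyba was at 7.01 to 13.2 CPM with inhibitor and at 9.89 and 10.1 CPM in the controls. Ncf1 (p47phox), the subunit that the peptide binds, was at 7.33 to 10.2 CPM against 9.28 and 9.06 CPM, a log2 change of −0.11 ± 0.21 (SE). Ncf4 (p40phox) had a log2 change of 0.54 ± 0.44 (SE) on 12 to 25 counts in a library. The GTPase gene Rac1, whose product is also used in the cytoskeleton, was at 149, 189, 131, 125 and 213 CPM against 197 and 172 CPM. Of the catalytic subunits of other oxidases, Nox1 had a log2 change of 0.03 ± 0.54 (SE) and Nox4 of −0.48 ± 0.66 (SE), the latter on 1 to 12 counts in a library. Of the 10 tested genes of this list 2 had a positive and 8 a negative change, with a median of −0.16. Noxa1, Duox1 and Duox2 had at most 5 counts in any of the 7 libraries and were not tested.

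Antioxidant genes, many of them targets of the transcription factor NRF2 (Nfe2l2), had 14 positive changes among 30 and a median log2 change of −0.01. Hmox1, which encodes the heme-degrading enzyme heme oxygenase 1, was at 3.35, 3.54, 2.82, 3.18 and 3.11 CPM with inhibitor and at 2.37 and 1.75 CPM in the controls. All inhibitor libraries were above both controls, on 26 to 53 counts against 39 and 21. Its log2 change was 0.63 ± 0.27 (SE; interval 0.055 to 1.20; edgeR quasi-likelihood test, unadjusted p = 0.0334, Benjamini-Hochberg adjusted p = 1.00), and in WT it was −0.02 ± 0.21 (SE). The quinone reductase gene Nqo1 also had both controls below, at 2.12 and 2.00 CPM, with inhibitor libraries at 2.38 to 4.17 CPM and a log2 change of 0.64 ± 0.45 (SE). The other well-known NRF2 targets had small changes: Gclc 0.04, Gclm −0.12, Srxn1 0.05, Txnrd1 0.16 and Slc7a11 −0.17 on the log2 scale. The superoxide dismutases Sod1, Sod2 and Sod3 had log2 changes of −0.19, −0.02 and −0.17.

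Several neutrophil transcripts were too low to be tested, and others were high in 1 library of each group. Ly6g, the surface marker used to define mouse neutrophils, had at most 1 count in any of the 7 libraries, and Ly6g, Mpo, Elane, Camp and 5 further genes of the list were too low to be tested. Of the 11 tested, 1 had a positive change and the median log2 change was −0.97. The granule gene Ngp was at 4.30, 0.517, 0.217, 0.363 and 0.0819 CPM in inhibitor 1 to 5 and at 0.728 and 4.49 CPM in controls 1 and 2. Ltf, Mmp8, S100a8 and S100a9 were likewise higher in inhibitor 1 and control 2 than in the other 5 libraries. Against control 1 alone the list's median was 0.08, and against control 2 alone −0.68. Those fits tested more genes than the main fit, so the list genes behind these medians could differ. The chemokine receptor gene Cxcr2 was the only gene of the list with both controls above, with 1, 3, 2, 0 and 3 counts against 10 and 6, so the inhibitor libraries were at or under the floor. Csf3r, which microglia also express, was at 21.1 to 28.2 CPM against 21.8 and 25.0 CPM.

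Genes that endothelial cells use to hold leukocytes overlapped between the groups. Of the 22 tested, 5 had positive changes, and the median log2 change was −0.14. Icam1 was at 11.4, 23.03, 11.4, 12.7 and 19.2 CPM with inhibitor and at 17.3 and 19.1 CPM in the controls. Vcam1 was at 76.0, 152, 99.4, 72.2 and 123 CPM against 116 and 114 CPM. Their log2 changes were −0.22 ± 0.68 and −0.14 ± 0.44 (SE). The selectin gene Sele was at 0.126 to 0.590 CPM with inhibitor and at 0.121 and 0.333 CPM in the controls, and Selp at 0.0632 to 0.812 CPM against 0.121 and 1.16 CPM. The neutrophil chemokine gene Cxcl1 was at 0.0907 to 0.664 CPM with inhibitor and at 0.607 and 0.582 CPM in the controls. Its counts were 3, 9, 1, 1 and 4 in inhibitor 1 to 5, and 10 and 7 in the controls. For Sele, Selp and Cxcl1 some libraries were thus at or under the floor. The log2 change of Cxcl1 was −1.02 ± 1.24 (SE). In WT it was 2.52 ± 0.81 (SE), where 1 inhibitor library reached 9.47 CPM, and the difference between the genotypes had an unadjusted p of 0.0308 by edgeR (adjusted p = 1.00).

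Microglial genes showed no call in either state. Of 25 genes that microglia raise around amyloid plaques, 10 had positive changes and the median log2 change was −0.08. Trem2, a lipid receptor needed for that state, was at 15.98, 28.7, 20.0, 22.05 and 27.8 CPM with inhibitor and at 19.1 and 26.7 CPM in the controls, a log2 change of 0.00 ± 0.21 (SE). Cst7 and Clec7a had log2 changes of −0.19 ± 0.38 and −0.40 ± 0.28 (SE), and the lipoprotein gene Apoe one of −0.02 ± 0.24 (SE). Of 12 genes of resting microglia 2 had positive changes, with a median of −0.12. Cx3cr1, the fractalkine receptor, was at 30.1 to 61.1 CPM against 50.6 and 67.1 CPM, and P2ry12, a purine receptor, at 18.6 to 29.8 CPM against 35.3 and 24.4 CPM. Perivascular macrophage, complement and interferon-stimulated genes had median log2 changes of 0.07, −0.05 and 0.03.

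Markers of the vessel cells had small median changes between the groups and varied between libraries. The 13 endothelial markers had 2 positive changes and a median log2 change of −0.16. Their mean level was 7.24, 7.97, 7.19, 7.13 and 7.81 log2 CPM in inhibitor 1 to 5 and 7.46 and 7.76 log2 CPM in controls 1 and 2, so both controls lay between inhibitor libraries. For Cldn5 the log2 change was 0.01 ± 0.32 (SE) and for Cdh5, the adhesion protein of endothelial junctions, −0.15 ± 0.25 (SE). Of the 17 blood-brain barrier genes 4 had positive changes, with a median of −0.05, and 16 had a 95% interval within 1 of 0. Slc2a1, the glucose transporter of brain endothelium, was at 643, 767, 705, 540 and 1255 CPM against 915 and 692 CPM. Plvap, a gene of leaky vessels, had a log2 change of 0.72 ± 0.54 (SE). Pericyte and smooth muscle markers split evenly, 7 positive of 14, with a median of 0.01. Astrocyte and endfoot markers had a median of −0.15 and vasoregulation and hypoxia genes one of −0.13.

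Over all 28 lists, 390 different genes were tested, of which 150 had positive changes, against 9408 (50.2%) of all 18753 genes tested. The median was negative for 19 lists and positive for 9. Genes of a list can vary together between libraries, and this lean to lower levels was not tested. Hmox1 was the only list gene with an unadjusted p under 0.05 and a higher level, and Atp5c1, a subunit of the mitochondrial ATP synthase, the only one with a lower level. They make up 0.513% of the list genes, against 1.80% of all genes. Atp5c1 was at 43.5, 46.1, 44.7, 39.0 and 44.4 CPM with inhibitor and at 49.2 and 53.5 CPM in the controls, a log2 change of −0.24 ± 0.10 (SE), while 16 of the 23 nuclear oxidative phosphorylation genes had positive changes and their median was 0.05. The groups did not overlap for 6 list genes (1.54%, against 4.63% of all genes). These were Hmox1 and Nqo1 with the controls below, and Atp5c1, Cxcr2, Hif1a and Tfpi with the controls above. Hif1a, the oxygen-regulated transcription factor, was at 64.4 to 86.9 CPM against 89.2 and 88.3 CPM, and Tfpi, an inhibitor of the coagulation cascade, at 12.8 to 20.9 CPM against 21.0 and 22.5 CPM. The median change was within 0.2 of 0 for 25 lists, against 0.00 for all genes tested.

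Lists of neighbouring cells and processes were among those 25. Oligodendrocyte, neuron and fibroblast markers had median log2 changes of −0.17, −0.07 and −0.06, and amyloid processing, coagulation, clock and NF-kB genes −0.10, −0.07, −0.04 and −0.00. The lowest p among the neuron markers was that of Stmn2, a microtubule regulator, at 80.0, 92.0, 80.1, 67.1 and 110 CPM with inhibitor and at 113 and 96.4 CPM in the controls, a log2 change of −0.29 ± 0.16 (SE). Among amyloid processing genes it was that of Adam10, the alpha-secretase that cuts APP outside the amyloid-forming path, with a log2 change of −0.24 ± 0.14 (SE). Bace1, which makes the first amyloid-forming cut, had a log2 change of −0.10 ± 0.15 (SE). The complement gene C4b was at 103, 197, 158, 179 and 174 CPM against 112 and 157 CPM, a log2 change of 0.27 ± 0.20 (SE). Ifit2, an interferon-stimulated gene, had one of −0.33 ± 0.27 (SE). In each of these genes the 2 groups overlapped.

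The lists with medians beyond that were the neutrophil, choroid plexus and erythroid genes, and each median changed when 1 control was left out. Those fits tested 19332 genes (without control 1) and 19334 (without control 2), against 18753, so the tested genes of a list could differ. The choroid plexus markers had 10 positive changes of 10 and a median log2 change of 0.92, which was 0.23 against control 1 alone and 2.89 against control 2 alone. Folr1, the folate receptor of that epithelium, had a log2 change of 1.23 ± 1.35 (SE). The part of choroid plexus tissue in other results was not tested beyond a fit with the marker level as a covariate, added after the data were seen, which gave 0 genes past the adjusted threshold and 286 at an unadjusted p under 0.05. The erythroid genes had a median of 0.53, which was 1.48 against control 1 alone and −0.09 against control 2 alone. Alas2, the enzyme that starts heme synthesis in red cell precursors, was at 5.05, 20.4, 8.14, 10.4 and 14.2 CPM against 4.00 and 12.4 CPM. The alpha globin genes had at most 1 count in any of these libraries, and reads of the near-identical beta globin genes Hbb-bs and Hbb-bt may be shared.

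Genes that respond quickly to stimulation and stress also separated the 2 controls from each other. All 13 heat shock and all 12 glucocorticoid-responsive genes were lower in control 2 than in control 1, with median log2 differences of −0.53 and −0.80, and 18 of 23 immediate early genes were. Sgk1, a kinase induced by glucocorticoids, was at 177 CPM in control 1 and 68.9 CPM in control 2, with inhibitor libraries at 75.5 to 123 CPM. Egr1, an immediate early transcription factor, was at 168 and 56.6 CPM in the controls and at 62.6 to 138 CPM with inhibitor. The median changes of the immediate early genes were −0.22 against control 1 alone and 0.54 against control 2 alone, those of the glucocorticoid-responsive genes −0.37 and 0.42, and those of the heat shock genes −0.15 and 0.41. With both controls the 3 medians were 0.05, −0.08 and 0.08.

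**Figure D5:**
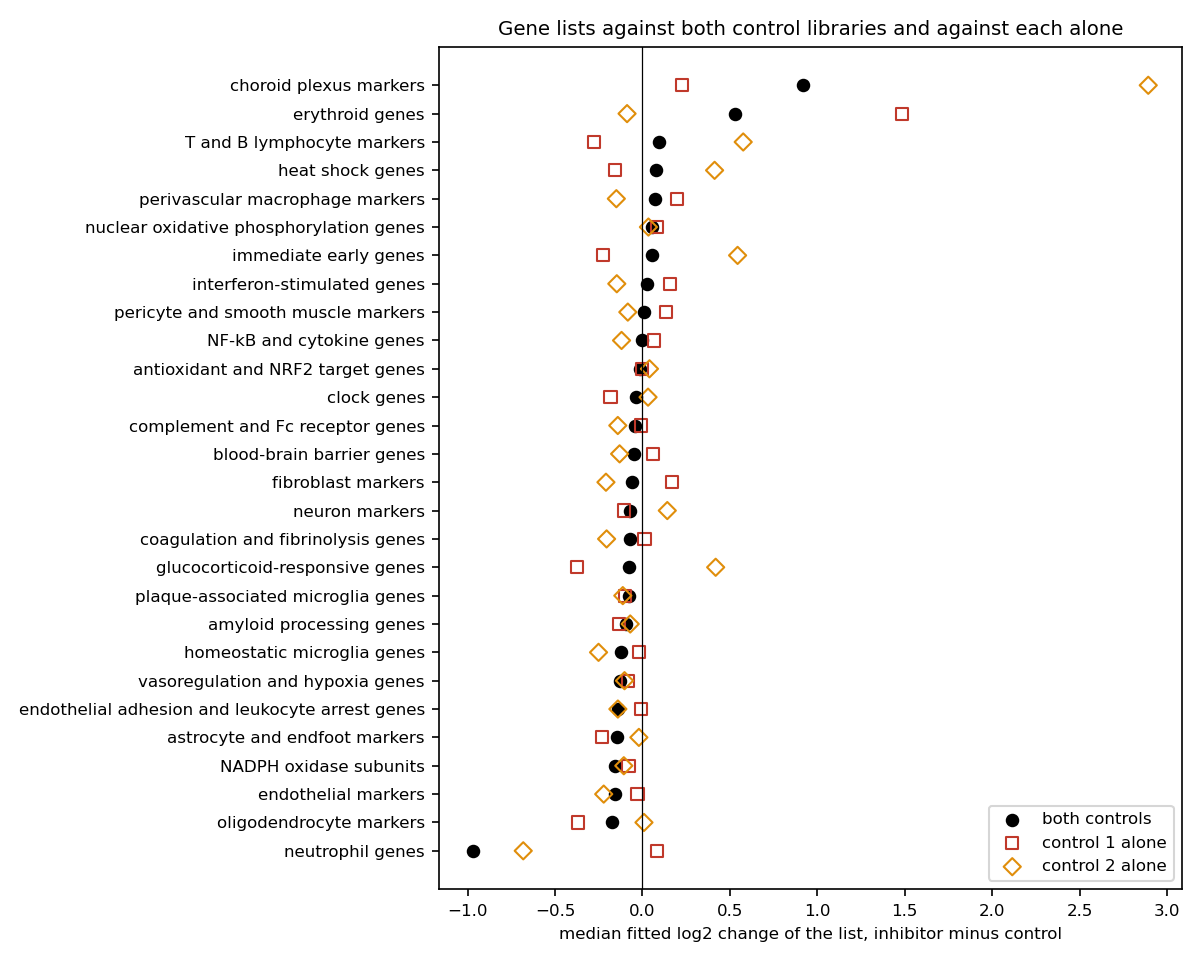
Median fitted log2 change, inhibitor minus control (x axis), of each of the 28 gene lists (y axis) with both controls (black points), control 1 alone (red squares) and control 2 alone (orange diamonds). Each median is over the list's genes tested in that fit, which can differ between fits, with no error bar. Choroid plexus markers move from 0.23 to 2.89 and immediate early genes from −0.22 to 0.54 with the control library used.

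Sex-linked levels were taken into account in alternatives added after the data were seen. With a term for high Y-linked levels 0 genes passed the adjusted threshold and 369 had an unadjusted p under 0.05 by edgeR. With the libraries of low Y-linked level alone, which leaves control 2 and 4 inhibitor libraries in APP/PS1, the counts were 0 and 292. In that fit the log2 change of Hmox1 was 0.91, that of Rfng 0.47, that of Rap1gap 0.44 and that of Cybb −0.53.

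Whether the inhibitor effect differed between APP/PS1 and WT was tested as the interaction of genotype and peptide. No gene passed: edgeR's test left 0 of 18753 (0%) under an adjusted p of 0.05 (Benjamini-Hochberg) and 158 (0.843%) under an unadjusted p of 0.05, against 141 by DESeq2 and 345 by limma-voom. The inhibitor effect in WT alone gave 0 genes (0%) and 252 (1.34%) at the same thresholds. The symbol-named genes with the smallest interaction p were Pcdhga8, Eral1 and Fbxo5. Fbxo5, an inhibitor of the anaphase-promoting complex, had log2 changes of 0.31 ± 0.21 in APP/PS1 and −0.45 ± 0.16 in WT (SE). Eral1, a chaperone of mitochondrial ribosome assembly, was at 15.2, 14.0, 11.6, 14.2 and 12.9 CPM with inhibitor and at 10.6 and 10.5 CPM in the APP/PS1 controls, and its log2 changes were 0.37 ± 0.15 and −0.17 ± 0.11 (SE) in APP/PS1 and WT. Pcdhga8, a member of the clustered protocadherins whose shared exons make its count uncertain, had an interaction of −0.33 ± 0.11 (SE). The median standard error of the interaction was 0.26 on the log2 scale.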

How the data were processed

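RNA was sequenced from cortical microvessels after ribosomal RNA depletion with a stranded kit (labels' protocols). The authors deposited raw counts per Ensembl gene for 42687 genes. The submitters' processing notes name cutadapt, STAR, HTSeq and DESeq2 and the builds GRCh37 and mm10, without roles or versions; annotation, strand setting and filters are not given in the sources used here. The table's 20 columns that match no sample were not used. GENCODE vM21 named 42250 IDs and left 437 unnamed; coordinates are its GRCm38 positions.

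Counts of all 17 libraries were scaled by TMM and filtered with filterByExpr in edgeR 4.0.16 (R 4.3.3), leaving 18753 genes. A model with 1 mean per group was tested by quasi-likelihood with Benjamini-Hochberg adjustment at 0.05; standard errors came from the F statistic. Log2 CPM used a prior count of 2. The procedure was run on simulated data in which large changes were placed in well-counted genes and genes varied independently. That run does not cover small changes, low counts or genes that vary together between libraries. Alternatives were DESeq2 1.42.0 and its size factors, limma 3.58.1 voom with quality weights, other filters, APP/PS1 libraries alone, counts without Gm26917 and Gm42418, and leaving out each library.

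Named genes were App, Prnp, oxidase subunits, the 10 symbol-named genes (no Gm, Rik, pseudogene or mitochondrial names) of at least 1 CPM with the smallest p in each direction, the lowest-p genes of each list (up to 3 at an unadjusted p under 0.05, otherwise 1), and, under the same symbol rule, the 5 of at least 1 CPM with the widest gaps between the groups in each direction, the 10 of at least 5 CPM differing most between the controls, the 5 varying most with inhibitor and the 3 with the smallest interaction p. The gene of any symbol with the smallest p was added. Some genes that these rules select are not reported here; other genes were named after their values were seen. Genes and lists were chosen with earlier results of these data known. Intervals and floors cover the stated model or counting error only.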

Additional observations from a re-analysis of the deposited data

Results flagged for a closer look

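In groups of 5 inhibitor libraries, 98 sets of values were examined for a library far from the others by Dixon's ratio (critical value 0.71), and 4 exceeded it. For normally spread values about 4.9 would be expected. The sets share libraries and genes and need not be normal, so these counts do not show whether a given value arose by chance. Inhibitor 3 had 668 CPM of Xist, with the other 4 at 6650 to 8447 CPM, and a summed Y-linked level of 319 CPM, with the others at 0.253 to 15.3 CPM. Inhibitor 1 had a mean of 0.98 log2 CPM over the neutrophil genes, with the others at −0.14 to 0.17. Lpl, a lipoprotein lipase gene of the plaque-associated list, was at 36.3 CPM in inhibitor 5 and at 22.7 to 26.6 CPM in the others. The reasons for these values were not tested.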

How the results depend on the processing

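All 19 fits gave 0 genes at an adjusted p under 0.05, with a smallest adjusted p of 0.9996. The 338 genes at an unadjusted p under 0.05 became 590 without a filter on low counts, where 52.7% of them had higher levels against 71.9%. With the 7 APP/PS1 libraries alone, which leaves the WT libraries out of the estimate of spread, the count was 229. Leaving out 1 library gave 219 (without inhibitor 4) to 614 (without control 2), and 592 without inhibitor 5. Fits without 1 control assume that the other varies like the other groups. No paired analysis was possible because the replicate numbers follow the sample order and pair no libraries.

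Of 504 list medians under alternatives, each over the list genes tested in that fit, 17 moved. The neutrophil median (−0.97) was −0.42 without a filter and −0.27 at 1 CPM or more. The lymphocyte median (0.10, on Trbc2 and Cd79a) was −0.54 under both. With low-Y libraries alone the medians were 3.14 for choroid plexus, 0.86 for lymphocyte, 0.48 for immediate early and 0.45 for glucocorticoid-responsive genes. Leaving out 1 library gave medians from −1.06 to 0.081 for neutrophil, −0.14 to 0.14 for neuron, 0.23 to 2.89 for choroid plexus, −0.088 to 1.48 for erythroid, −0.28 to 0.58 for lymphocyte, −0.22 to 0.54 for immediate early, −0.37 to 0.42 for glucocorticoid-responsive and −0.18 to 0.032 for clock genes. The causes were not tested.

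Signs were followed for 66 genes, a part of those that the naming rules select, and 57 kept their sign under all 18 alternatives. Many were chosen for a small p or a wide gap in this same contrast, so a kept sign partly follows from the choice. Some genes named above for their difference between the controls, such as Cldn2 and Mfrp, are not among the 66. Their mean with inhibitor, 17.9 and 36.7 CPM, lay between the controls. Controls 1 and 2 were at 24.7 and 0.832 CPM for Cldn2 and at 45.9 and 3.16 CPM for Mfrp. The sign of such genes could turn on the control used, and the count of 57 does not cover them. Leaving out 1 library gave log2 changes from −0.18 to 0.063 for Cyba, −0.37 to 0.13 for Rac2, −0.14 to 0.27 for Nox1, −0.13 to 0.92 for Egfl7, −0.030 to 0.50 for Hsph1, −0.68 to 0.21 for Mt2, −0.52 to 0.014 for Hlf and −0.54 to 0.11 for Il10ra. With low-Y libraries alone Cyba was at 0.00453, Noxo1 0.018, Egfl7 −0.041, Mt2 0.36 and Hlf 0.028, and with the choroid covariate Nox1 was at −0.041.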
